A study of Mus musculus with 6 samples.

Results

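Plasmacytoid dendritic cells of the arthritic mouse synovium were selected by their counts of unique molecular identifiers (UMIs, each standing for one captured mRNA molecule). A cell belonged when it held at least 3 UMIs of Siglech and at least 1 of Tcf4, none of Lyve1, and fewer than 5 of Cd79a and Cd79b together. These limits kept 620 of 32953 cells, which held 9061493 of the 486548899 UMIs. All 6 barcode libraries were pooled. The levels of Siglech, Tcf4, Lyve1, Cd79a and Cd79b were used to choose the cells and are therefore given as a description only.

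The cells were CD45+ leukocytes sorted from digested knee synovium of male C57BL/6 mice, purchased at 8 weeks of age, with antigen-induced arthritis. Every mouse was immunized subcutaneously with 10 µg of methylated bovine serum albumin (mBSA) in complete Freund's adjuvant and received 100 µg of mBSA in the knee on day 21, and the tissue was taken 3 days later. Mice received either phosphate-buffered saline (PBS, 2 samples) or PEPITEM, an immunopeptide released from the 14-3-3ζ protein (300 µg intraperitoneally from day 21, 4 samples). No label or file examined here ties a barcode number to a sample, so PBS was not compared with PEPITEM. For the same reason the libraries were not treated as replicates of a group, and no p-value is given. There was no unimmunized group among these samples.

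Plasmacytoid dendritic cells develop in bone marrow from progenitors that also give rise to lymphoid cells, under the E protein TCF4 (also called E2-2). They sense nucleic acids in endosomes through TLR7 and TLR9 and are known as the main rapid source of type I interferon, with a secretory apparatus that resembles that of plasma cells. Siglec-H, encoded by Siglech, is a receptor of the Siglec family that signals through the adaptor DAP12 and marks these cells in mice. BST2 (tetherin) is the antigen of the antibody commonly used to find them. In the inflamed joint, as elsewhere, they differ from conventional dendritic cells, whose type 1 and type 2 forms present antigen.

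The genes whose counts were most confined to the selected cells were named by the share of all their UMIs that lay in the 620 cells, which held 1.86% of all UMIs. Siglech had 90.3% of its UMIs there, and Tcf4, which B cells also use, 27.6%. Among genes at 100 or more UMIs per 1000000 UMIs of the population (CPM), the 10 with the highest share were Klk1 (95.5%), Sh3bgr (94.4%), D13Ertd608e (94.3%), Grm8 (92.8%), Ccr9 (85.8%), Cox6a2 (82.2%), Pacsin1 (78.1%), Cd300c (77.2%), Paqr5 (67.0%) and Ncald (65.1%). Ccr9 encodes the receptor for the chemokine CCL25, Klk1 tissue kallikrein, Grm8 a metabotropic glutamate receptor, Cox6a2 a subunit of cytochrome c oxidase, Pacsin1 an endocytic adaptor and Cd300c a myeloid immunoglobulin-like receptor.

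E proteins bind E-boxes, and the letters CACCTG or its complement CAGGTG are a form that they are known to bind. The RefSeq promoter table (GRCm38.p6) matched 7 of the 11 genes made up of Siglech and these 10. In 6 of the 7, CACCTG or CAGGTG lay within the 250 bases before a listed transcription start, against 19.4% of 27025 genes with a listed start. The general form CANNTG, which includes both, was found in 6 of the 7 against 69.3% of genes. Grm8 held it at 1 of its 3 listed starts, Pacsin1 held neither form, and Paqr5 held it at 2 places. The stretches before the starts of Siglech, of 3 genes with the letters and of Pacsin1 without them are shown as examples of genes with a shared pattern of expression; capitals mark CACCTG or CAGGTG, and each sequence is written 5′ to 3′ on the strand of its gene.
Siglech (chr7:55767934-55768183, + strand): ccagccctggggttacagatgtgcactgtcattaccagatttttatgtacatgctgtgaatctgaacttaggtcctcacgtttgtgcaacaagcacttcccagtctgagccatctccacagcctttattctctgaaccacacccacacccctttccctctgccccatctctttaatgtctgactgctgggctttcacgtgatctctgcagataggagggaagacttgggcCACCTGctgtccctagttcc
Klk1 (chr7:44225110-44225359, + strand): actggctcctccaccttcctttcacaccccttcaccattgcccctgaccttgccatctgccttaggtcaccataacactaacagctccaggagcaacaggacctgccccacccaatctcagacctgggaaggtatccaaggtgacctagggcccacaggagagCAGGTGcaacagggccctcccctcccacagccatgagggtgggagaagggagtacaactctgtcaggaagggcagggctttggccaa
Ccr9 (chr9:123766961-123767210, + strand): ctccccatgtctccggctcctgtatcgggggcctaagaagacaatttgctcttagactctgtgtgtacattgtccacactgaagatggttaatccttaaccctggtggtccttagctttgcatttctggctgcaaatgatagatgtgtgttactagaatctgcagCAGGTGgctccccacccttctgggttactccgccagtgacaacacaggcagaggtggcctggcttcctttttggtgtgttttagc
Cd300c (chr11:114960508-114960757, - strand): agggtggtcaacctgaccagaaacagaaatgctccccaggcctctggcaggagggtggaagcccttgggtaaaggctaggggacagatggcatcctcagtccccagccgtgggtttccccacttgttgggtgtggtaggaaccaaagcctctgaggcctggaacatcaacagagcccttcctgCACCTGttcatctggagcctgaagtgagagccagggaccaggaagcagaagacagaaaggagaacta
Pacsin1 (chr17:27684989-27685238, + strand): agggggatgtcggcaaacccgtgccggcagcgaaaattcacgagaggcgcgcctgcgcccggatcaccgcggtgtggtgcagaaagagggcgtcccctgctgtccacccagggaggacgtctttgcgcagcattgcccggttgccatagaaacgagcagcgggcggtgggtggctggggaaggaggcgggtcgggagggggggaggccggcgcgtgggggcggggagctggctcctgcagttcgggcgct
The marked letters began 20 bases before the start of Siglech, 87 before Klk1, 85 before Ccr9 and 67 before Cd300c. Such a match is a description of the sequence; binding was not measured.

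The libraries differed in how many of these cells they held. Barcode libraries 1 to 6 contained 39, 152, 38, 55, 137 and 199 of them, or 1.17%, 2.62%, 1.30%, 1.38%, 1.47% and 2.64% of their cells. Library 2 (Wilson 95% interval 2.24% to 3.06%) and library 6 (2.30% to 3.03%) had the highest shares. Intervals here and below cover counting error only and give no spread between samples. Over all cells the share was 1.88% (1.74% to 2.03%). Type 1 dendritic cells, selected on at least 1 UMI of both Clec9a and Xcr1, with fewer than 5 of Cd79a and Cd79b (101 cells), and type 2 dendritic cells, selected on at least 3 UMIs of Cd209a and 5 of H2-Ab1, with none of Clec9a or Ly6g and fewer than 5 of Cd79a and Cd79b (469 cells), were lowest in library 6, at 0.0531% and 0.557%, and highest in library 3, at 0.822% and 3.39%.

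**Figure D1:**
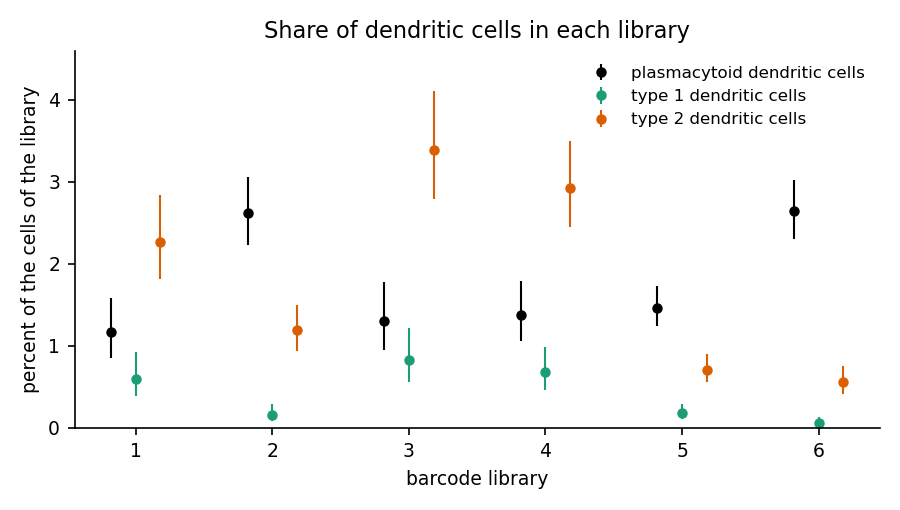
Percent of the cells of each barcode library (x axis, libraries 1 to 6) that were plasmacytoid, type 1 or type 2 dendritic cells; points are shares and bars Wilson 95% intervals. The plasmacytoid share was 2.62% in library 2 and 2.64% in library 6 and between 1.17% and 1.47% in the other 4.

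Other cells differed between the libraries as well. Cells with 3 or more UMIs of Vpreb1 and Igll1, the surrogate light chain of developing B cells, made up 1.29%, 4.80%, 1.30%, 1.40%, 2.05% and 2.59% of libraries 1 to 6. Cells with 3 or more UMIs of the stem cell genes Meis1 and Mecom made up 1.97%, 3.63%, 1.37%, 1.45%, 1.89% and 3.73%, highest in libraries 2 and 6. Cells with 20 or more UMIs of the granule genes Elane, Prtn3 and Mpo, which mark granulocyte precursors, made up 1.88%, 3.41%, 1.64%, 2.75%, 7.09% and 8.52%, highest in libraries 5 and 6, and so did not follow the plasmacytoid share in library 5. Cells with 3 or more UMIs of Lyve1, a gene of resident macrophages, made up 11.1%, 0.912%, 7.33%, 11.04%, 5.19% and 2.56%, lowest in libraries 2 and 6. The first 3 gene sets mark cells of bone marrow, and the part of marrow cells in the shares was not tested.

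The 620 cells held between 2728 and 86588 UMIs each, with a median of 12037.5 beside 11376 over all cells, and a median of 3544 genes. Their median UMIs per cell in libraries 1 to 6 were 16554, 13635.5, 12210.0, 12832, 9601 and 11761, and the libraries held between 47273569 and 123367661 UMIs in all. Between 0.967% and 9.58% of the UMIs of a member were mitochondrial. The 6 libraries shared 138 of their 16-base barcodes, which named 276 cells, of which 7 were members, and no 2 members shared one.

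The selected cells carried the markers of their label. Bst2 stood at 2146, 2192, 2087, 2627, 2587 and 1938 CPM in libraries 1 to 6, against 181 in type 1 dendritic cells, 237 in type 2 dendritic cells and 58.4 in B cells (2398 cells selected on at least 2 UMIs of Ms4a1 and 5 of Cd79a and Cd79b together). All 3 comparison populations were limited to cells with no UMI of Siglech. Irf8, a transcription factor of both plasmacytoid and type 1 dendritic cells, stood at 1309, 1328, 1164, 1067, 2106 and 1315 CPM, highest in library 5, against 791, 70.7 and 206. In every library both genes were higher than the pooled level of the other 3 populations. Siglech itself was at a pooled 1311 CPM with a median of 18 UMIs per cell, and Tcf4 at 3507 CPM with a median of 47. No member had under 4 UMIs of Tcf4, so that its threshold of 1 removed almost nothing beyond the Siglech threshold: 689 of the 692 cells with at least 3 UMIs of Siglech also had Tcf4.

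Cells at the edge of the rule carried less of the other marker genes. The 47 members with 3 or 4 UMIs of Siglech had 247 CPM of Cox6a2, 65.9 of Ccr9 and 1058 of Bst2. The 28 cells with 2 UMIs that met the other limits had 162, 24.6 and 797 CPM, and the 573 members with 5 or more had 1057, 642 and 2333. In the same order, these sets had a median of 16871, 18567 and 11887 UMIs per cell. The macrophage gene C1qa stood at 274, 533 and 29.7 CPM in them, and the neutrophil gene S100a8 at 16833.5, 6888.5 and 9646. The part of such RNA in the lower marker levels was not tested. A rule that used neither Siglech nor Tcf4, a UMI of both Ccr9 and Cox6a2, found 535 cells, of which 490 were members. That rule was chosen after the values were seen. Both genes are among those named above for the share of their UMIs in the members, so the overlap is no independent evidence.

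When all cells were clustered on 2000 variable genes, 540 of the 620 members fell into 1 of 33 clusters, and they made up 94.9% of its 569 cells. The genes of the rule were not left out of this clustering. Siglech and Tcf4 ranked 1 and 12 among the leading genes of that cluster, so the overlap is a description only. The 80 members outside the cluster had a median of 21398 UMIs per cell against 11658 inside, and pooled levels of 379 CPM of Siglech against 1572. Their C1qa, a complement gene of macrophages, stood at 235 CPM against 4.10, and their S100a8 at 25471 against 6148.

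Neutrophil RNA was concentrated in few members. S100a8 and S100a9, the most abundant mRNAs of neutrophils, made up 10381 and 11425 CPM of the pooled counts, yet 587 of the 620 cells had no UMI of either. The other 33 held at least 8 UMIs of the pair and a median of 4638, and had a median of 33075 UMIs per cell against 11805. The authors corrected for free RNA, so a 0 of these genes may be a count that this step lowered to 0. Its part in the pattern was not tested. All 10 neutrophil markers were detected, with a summed level from 10894 CPM in library 3 to 40415.5 in library 2, and of 28.0 CPM in the 587 cells. Of the 14 monocyte and macrophage markers all were detected, summing to 2483 CPM, led by Lyz2 at 1566; their sum was 1427 CPM in the 587 cells, and 78 members had 5 or more UMIs. The 9 B cell markers summed to 15.01 CPM (8250 in B cells), with Ms4a1 at 0.221, the 8 T cell markers to 43.8 (a UMI in 146 members) and the 7 natural killer cell markers to 19.1 with Gzma at 0. The 6 plasma cell markers summed to 76.6 CPM, led by Irf4 at 45.2, and were spread more widely, with a UMI in 315 members. The 6 fibroblast markers reached 53.3 CPM, with 188 in library 2 and at most 1.39 in the other 5, and 1 member held 5 or more of their UMIs. Levels were therefore also computed without the cells that held S100a8 or S100a9; in the type 1 and type 2 dendritic cells and the B cells such cells were left out likewise. That alternative was chosen after the data were seen. The part of the monocyte, macrophage and other markers in the results was not tested.

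Each comparison below gives the ratio of pooled CPM with an exact 95% counting interval, and calls a gene at 2-fold or more among those whose mean CPM over the pair of populations was at least 10. Level here means molecules captured at the 3′ end, so genes are not divided by their length. Against type 1 dendritic cells, 1470 of 8098 genes (18.2%) were called higher and 635 (7.84%) lower in plasmacytoid dendritic cells. Against type 2 dendritic cells, 1469 of 8049 (18.3%) were higher and 788 (9.79%) lower, and against B cells 910 of 8446 (10.8%) were higher and 676 (8%) lower. In every library with 10 or more cells of both populations (4, 6 and 6 libraries), 1331 of the 1470, 1341 of the 1469 and 855 of the 910 genes stood higher. Of the genes called lower, 511 of the 635, 683 of the 788 and 639 of the 676 stood lower in every such library. The median log2 fold over all genes was 0.22 against type 1, 0.26 against type 2 dendritic cells and -0.03 against B cells. With median-of-ratios scaling these medians moved by -0.22, -0.34 and 0.01, and the share of calls that were higher fell from 69.8% to 56.5% against type 1 and from 65.1% to 45.2% against type 2 dendritic cells. A gene under 10 CPM in 1 of the populations passed this filter only through the other, so members of a list are counted below where both populations were at 10 CPM or more, a limit set after the values were seen. Of the 7029, 6959 and 7586 such genes, 12.7%, 12.8% and 7.88% were higher and 6.33%, 8.05% and 5.63% lower than in type 1 dendritic cells, type 2 dendritic cells and B cells, with median log2 folds of 0.17, 0.20 and -0.04. Counts and medians of lists are given in the order of these 3 populations and are read beside these shares and medians.

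Among genes that met the limits for naming, those with the largest fold over type 1 dendritic cells were Ly6d, Cox6a2, Grm8, Dntt, Sla2, Ncald, Paqr5, Atp1b1, Tmem163 and Ephb2. The rank in each comparison depends on setting a count of 0 to 3 UMIs, since other counts were used as found. Klk1, at 179 CPM here and with no UMI in type 1 dendritic cells, is not among these genes. Ephb2, at 105 CPM here and with 1 UMI there, is. Ly6d, a surface protein of early lymphoid cells, stood at 2192, 1904, 1162, 2177, 2841 and 1841 CPM in libraries 1 to 6, lowest in library 3, and no UMI was found in 101 type 1 dendritic cells, so that it was at least 1836-fold higher. Cox6a2 stood at 889.8, 974, 779, 1140.3, 1138 and 905 CPM, also with no UMI in type 1 dendritic cells, and was at least 878-fold higher. Both were as clear against type 2 dendritic cells, at 0.101 CPM (1 UMI) and 0.911 CPM. Over type 2 dendritic cells the 10 leading genes were Ly6d, Atp1b1, Grm8, Ncald, Sh3bgr, Blk, Dntt, Tmem163, Cox6a2 and Klk1. Klk1 stood at 132, 166, 185, 311, 229.8 and 138 CPM with library 4 the highest, and at 0 in type 2 dendritic cells (at least 589-fold higher). Over B cells they were Paqr5, Sh3bgr, D13Ertd608e, Grm8, Klk1, Cd300c, Lrp8, Srgap3, Cd7 and Ephb2. Grm8 stood at 316, 438, 446, 859.7, 809 and 783 CPM, lowest in library 1, and was 725-fold (453 to 1246) over B cells. Ly6d did not differ in this way from B cells, where it stood at 1904 CPM, a ratio of 1.07-fold (1.05 to 1.09).

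Most of the leading lower genes were close to 0 in these cells. Against type 1 dendritic cells they were led by Plet1, Sept3, Itgae, Timd4, Hepacam2 and P3h2, all between 0.662 and 1.10 CPM here. Itgae, the integrin CD103, stood at 131 CPM in type 1 dendritic cells and 0.772 here. Against type 2 dendritic cells the leading genes were Ccl17, Retnla, Klrb1b, Clec4b1, Mgl2 and Lyz1. Ccl17, a ligand of CCR4, stood at 324 CPM there and at 0.110 (1 UMI) here, and Mgl2, a lectin of type 2 dendritic cells, was 51.1-fold (42.1 to 62.6) lower. Against B cells they included Vpreb3, Scd1, Klhl14, Fcer2a and Ebf1. Ebf1, the factor that commits cells to the B lineage, stood at 4667 CPM in B cells and 6.95 here, and Klhl14 had no UMI here, at least 1214-fold lower.

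**Figure D2:**
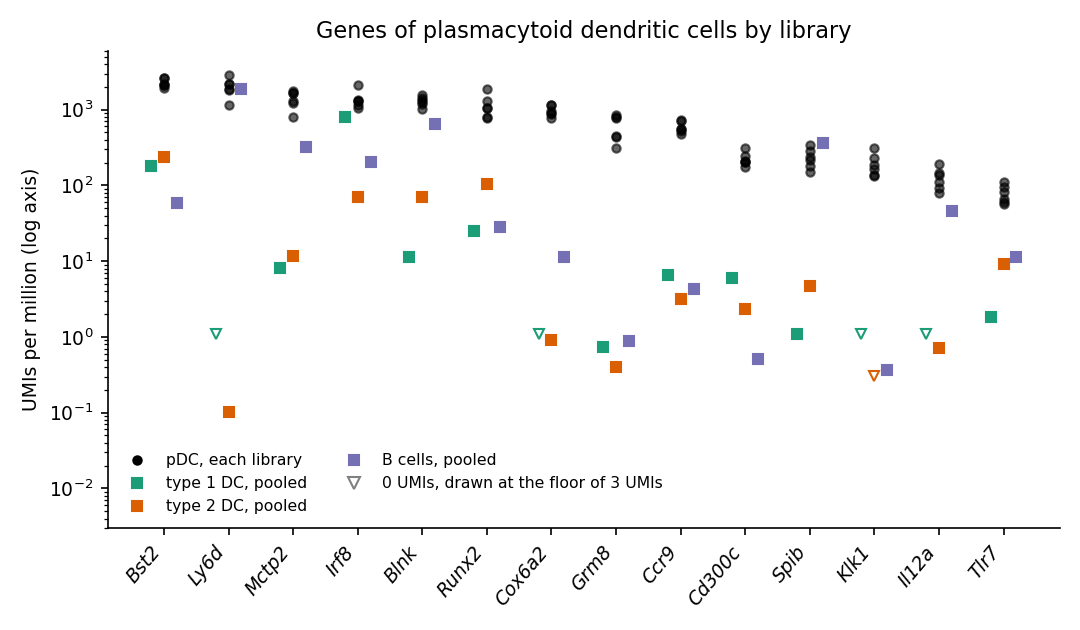
Level of 14 genes in CPM (y axis, log scale) in plasmacytoid dendritic cells of each of 6 libraries (black points) and pooled over type 1 dendritic cells, type 2 dendritic cells and B cells (squares). Open triangles mark genes with 0 UMIs, drawn at the level of 3 UMIs. The points of Bst2, Cox6a2, Grm8, Ccr9, Cd300c and Klk1 lie above all 3 other populations in every library, the points of Ly6d lie on either side of B cells, and those of Spib lie below B cells.

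Of 30 surface and identity genes of plasmacytoid dendritic cells, 29 passed the filter, but 17, 13 and 17 of them were under 10 CPM in the other population and are not counted. Of the 12, 16 and 12 left, 10, 13 and 11 were higher and none lower, beside 12.7%, 12.8% and 7.88% of all genes higher and 6.33%, 8.05% and 5.63% lower. Because this list was drawn up for the cell type that the rule selects, its direction is no independent evidence. Ccr9 stood at 475, 525, 555, 739, 707 and 562 CPM in the 6 libraries and at 6.66, 3.14 and 4.24 in the other populations. Cd300c stood at 213, 247, 175, 207, 312 and 201 CPM and was 449-fold (243 to 937) over B cells. Lag3, an inhibitory receptor for MHC class II, stood at 47.3, 38.4, 56.0, 110.5, 61.5 and 35.7 CPM, highest in library 4, and was 8.91-fold (5.35 to 16.1) over type 1 dendritic cells. The DAP12 adaptor gene Tyrobp, needed for Siglec-H signaling, stood at 2715 CPM against 767, 1590.4 and 415, past 2-fold over type 1 dendritic cells and B cells and 1.71-fold (1.67 to 1.74) over type 2 dendritic cells. Of the 17 genes of the DAP12 and Fc receptor signaling list, 16, 16 and 15 were counted, of which 8, 6 and 7 were higher and 1, 3 and 2 lower, beside the same shares of all genes. Among them Lair1, an inhibitory collagen receptor, and Ptprs, a receptor phosphatase of these cells, stood at 317 and 199 CPM, and at no more than 26.6 CPM in any of the others.

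Of 14 transcription factors of the lineage, also a list drawn up for this cell type, 13, 12 and 13 were counted. Of these 7, 9 and 6 were higher and 1 lower in each comparison, beside 12.7%, 12.8% and 7.88% of all genes higher and 6.33%, 8.05% and 5.63% lower. With median-of-ratios scaling 7, 7 and 7 were higher, beside 660 of 7091, 550 of 7039 and 606 of 7586 among all genes. Runx2, which acts in the egress of these cells from marrow, stood at 1037, 1049.7, 806, 777, 1851 and 1308 CPM, highest in library 5, and was 49.4-fold (38.9 to 63.8), 11.6-fold (10.9 to 12.4) and 43.8-fold (40.2 to 47.9) over type 1, type 2 dendritic cells and B cells. Spib, an ETS factor of plasmacytoid dendritic and B cells, stood at 179.6, 215, 151, 347, 281 and 239 CPM against 1.11 and 4.76 in the conventional cells and 358 in B cells, the ratio to B cells being 0.666-fold (0.634 to 0.699). Bcl11a, which acts upstream of TCF4, stood at 531 CPM and was 2.29-fold (2.20 to 2.38) over B cells. Mef2c and Ikzf1, at 1319 and 549 CPM, lay within 1.04-fold of B cells but 7.14-fold (6.80 to 7.51) and 4.56-fold (4.28 to 4.86) above type 2 dendritic cells. Mycl, a MYC family factor, stood at 23.7, 29.7, 25.4, 29.2, 46.1 and 28.8 CPM, 13.5-fold (8.79 to 21.6) over type 2 dendritic cells and 75.7-fold (37.9 to 177) over B cells, but at a ratio of 1.07-fold (0.833 to 1.39) to type 1 dendritic cells. Tsc22d1 was 8.96-fold (7.17 to 11.3), 7.79-fold (6.94 to 8.76) and 8.13-fold (7.45 to 8.89) over the 3 populations. Irf8 was 1.79-fold (1.71 to 1.88) over type 1 dendritic cells. Nfil3, needed for type 1 dendritic cells, was the member lower than in both conventional populations, at 43.3 CPM against 92.8 and 122, and Tcf3 the one lower than in B cells, at 30.1 against 142.

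Among 18 genes of conventional dendritic cells, 14 and 13 were counted against type 1 and type 2 dendritic cells; 7 and 7 were lower and 3 and 2 higher, beside 6.33% and 8.05% of all genes lower and 12.7% and 12.8% higher. Zbtb46 and Id2, which hold conventional dendritic cells in their lineage, were 10.1-fold (8.26 to 12.5) and 7.70-fold (7.04 to 8.42) below type 1 dendritic cells. Xcr1 (0.221 CPM), Batf3 (1.54 CPM) and the double-stranded RNA sensor Tlr3 (0.110 CPM, 1 UMI) were near 0. Some genes of type 1 cells were present at a lower level: Clec9a stood at 82.2, 53.2, 86.5, 47.0, 76.2 and 57.0 CPM and Cadm1 at 72.4, 119, 129, 138, 94.2 and 115 CPM in the 6 libraries, against 266 and 466 in type 1 dendritic cells, which were themselves chosen on Clec9a. Type 2 dendritic cells, whose rule required Clec9a at 0, had 10.1 CPM of Cadm1. Klrd1, which encodes CD94, stood at 192 CPM, 3.29-fold (2.79 to 3.90) over type 1 dendritic cells.

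Lymphoid genes were looked at one by one. Of 22 such genes 8 passed the filter against each conventional form, 3 of them at under 10 CPM in that form, and 19 passed it against B cells, 10 of them at under 10 CPM in the plasmacytoid cells. Because such genes passed only through the population where they were high, no count or median of the list is read, and members are given singly. Dntt, which encodes terminal deoxynucleotidyl transferase and adds bases at the joins of antigen receptor genes, stood at 113, 279.8, 120.4, 221, 235 and 264 CPM, lowest in libraries 1 and 3, and was 15.6-fold (13.8 to 17.7) over B cells. Blnk, a linker of receptor signaling to phospholipase C, stood at 1033, 1326, 1203, 1424, 1278 and 1558 CPM and was 2.10-fold (2.05 to 2.16) over B cells. Il7r and Notch1, at 301 and 57.8 CPM, were the other members higher than in B cells, by 3.76-fold (3.53 to 4.01) and 2.64-fold (2.32 to 3.004). Ighm stood at 593, 571, 517, 413, 641 and 550.3 CPM, 9.48-fold (8.70 to 10.3) over type 2 dendritic cells and 7.99-fold (7.76 to 8.22) below B cells, and Iglc3 at 123, 149.9, 144, 232, 238 and 144 CPM against 0.304 and 532. The kappa constant gene Igkc stood at 64.9 CPM, 129-fold (119 to 139.9) below B cells, and since reads of the lambda constant genes can match one another, Iglc3 is uncertain against Iglc1 and Iglc2. Rag1 had no UMI (a limit of 0.331 CPM), Rag2 had 0.331 CPM, and Pax5 and Vpreb1 had 1.77 and 1.66 CPM against 1031 and 40.2 in B cells. The rule itself limits Cd79a and Cd79b, and so bears on how much RNA of B lineage cells the members could hold.

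Genes of the endosomal sensing pathway were called in both directions. Of 20 genes, 15, 15 and 16 were counted, and 2, 2 and 2 were higher and 2, 3 and 1 lower, beside 12.7%, 12.8% and 7.88% of all genes higher and 6.33%, 8.05% and 5.63% lower. Tlr7, the sensor of single-stranded RNA, stood at 65.4, 56.8, 81.4, 93.97, 112 and 60.04 CPM, highest in library 5, and was 39.1-fold (16.7 to 121), 7.77-fold (6.24 to 9.77) and 6.42-fold (5.50 to 7.52) over the 3 populations. Tlr9, the DNA sensor, was at 3.20 CPM here (29 UMIs) and at 1.48, 1.82 and 3 in type 1 dendritic cells, type 2 dendritic cells and B cells, too low to compare. Unc93b1, which carries these receptors to endosomes, stood at 480.3 CPM and Slc15a4, an endolysosomal transporter needed for their signaling, at 99.3, which were 2.18-fold (2.07 to 2.30) and 2.35-fold (2.09 to 2.64) over type 2 dendritic cells. With median-of-ratios scaling these became 1.74-fold and 1.87-fold, under the limit of a call. Irf5, a factor of inflammatory cytokine genes, was lower than in type 1 and type 2 dendritic cells by 3.05-fold (2.71 to 3.44) and 2.45-fold (2.23 to 2.69). Irf7, which drives interferon alpha genes, stood at 157, 43.8, 71.2, 96.5, 114 and 82.3 CPM, highest in library 1 and lowest in library 2, and was 4.72-fold (4.15 to 5.38) over B cells but at a ratio of 0.962-fold (0.829 to 1.12) to type 1 dendritic cells.

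Of 20 type I and III interferon genes listed, 3 were in the table read here, each at or under 3 UMIs. Ifnb1 and Ifnz had no UMI in 9061493 (a limit of 0.331 CPM), and Ifnk had 3 UMIs; the interferon alpha genes were not analysed here. Both chains of the type I interferon receptor were present: Ifnar2 stood at 356, 321, 377, 339, 450.3 and 354 CPM and was 3.30-fold (2.93 to 3.73), 2.32-fold (2.18 to 2.46) and 3.91-fold (3.69 to 4.14) over the 3 populations (1.85-fold over type 2 with median-of-ratios scaling), and Ifnar1 stood at 167, 178, 197, 219.7, 239.9 and 184 CPM, 2.20-fold (2.06 to 2.36) over B cells. Of 30 interferon-stimulated genes in the table, 22, 27 and 22 passed the filter, but 2, 7 and 2 of them were under 10 CPM in the plasmacytoid cells and 1, 1 and 4 in the other population and are not counted. Of the 19, 19 and 16 at 10 CPM or more in both, 1 was higher and 3 lower than in type 1, 1 higher and 7 lower than in type 2 dendritic cells, and 4 higher and none lower than in B cells, beside 12.7%, 12.8% and 7.88% of all genes higher and 6.33%, 8.05% and 5.63% lower. Without cells that held S100a8 or S100a9, 4 of 18 were higher and 4 lower than in type 1 dendritic cells. Among all 6957 genes of that setting 1018 were higher and 464 lower. Isg15 stood at 201, 19.96, 44.1, 48.3, 55.5 and 35.7 CPM, with library 1 well above the other 5, and was 4.58-fold (4.14 to 5.09) below type 2 dendritic cells. Ifi44 stood at 36.2, 16.4, 8.48, 53.3, 40.1 and 25.4 CPM and was 11.3-fold (7.43 to 18.0) over them. Summed over the list, libraries 1 to 6 had 2988, 1520, 2144, 2321, 2688 and 2029 CPM, highest in library 1 and lowest in library 2.

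Of 19 genes of MHC class II and costimulation, 5, 5 and 4 were under 10 CPM in the plasmacytoid cells and passed the filter only through type 1 dendritic cells, type 2 dendritic cells and B cells, so that they are not counted. Of those at 10 CPM or more in both populations, 12 of 13 were lower than in type 1, 11 of 12 lower than in type 2 dendritic cells and 7 of 13 lower than in B cells, and none was higher, beside 12.7%, 12.8% and 7.88% of all genes higher and 6.33%, 8.05% and 5.63% lower. Without cells that held S100a8 or S100a9, 1 of 14 was higher and 8 were lower than in B cells. Among all 7466 genes of that setting 668 were higher and 486 lower. H2-Aa stood at 829, 695, 1337, 1029, 712 and 690.3 CPM, highest in library 3, and was 9.02-fold (8.78 to 9.28) and 10.2-fold (9.94 to 10.4) below type 1 and type 2 dendritic cells, the second of which were chosen on another class II gene. Cd74, the invariant chain, stood at 2630.4, 1806, 3912, 3035, 2190.1 and 1962 CPM against 15771, 19837 and 5796. Ciita, the activator of class II genes, was 6.35-fold (4.93 to 8.22), 6.52-fold (5.26 to 8.16) and 5.62-fold (4.56 to 6.99) lower. The costimulatory Cd86 stood at 156, 56.0, 227, 96.5, 57.5 and 129.7 CPM and was 6.77-fold (6.32 to 7.26) below type 2 dendritic cells. H2-Oa, a chain of the modulator of peptide loading, was the tested gene called against neither conventional form, at 47.6 CPM against 56.6, 42.6 and 77.8. After each cell was thinned to 3000 UMIs, the 619 cells held a median of 9 UMIs of the list, with 1 at the 10th percentile, 37 at the 90th and 201 at the highest, and the variance over cells was 20.9 times the mean.

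Most genes of the secretory pathway were not called. Of its 30 genes 28, 28 and 29 were counted, and 2, 2 and 9 were higher and 1 lower in each comparison, beside 12.7%, 12.8% and 7.88% of all genes higher and 6.33%, 8.05% and 5.63% lower. The median log2 folds of these genes were 0.19, 0.25 and 0.75 beside 0.17, 0.20 and -0.04 over all genes. Mzb1, a chaperone of marginal zone B and plasma cells, stood at 55.7, 66.1, 67.9, 62.2, 100.2 and 68.6 CPM, at 0 in type 1 dendritic cells (at least 64.5-fold higher) and at 0.203 in type 2 dendritic cells, but 2.96-fold (2.72 to 3.22) below B cells. Tmed3, a cargo receptor between the endoplasmic reticulum and Golgi, was 2.75-fold (2.35 to 3.24), 2.12-fold (1.95 to 2.31) and 7.65-fold (6.88 to 8.52) higher (1.69-fold over type 2 with median-of-ratios scaling). Xbp1, the factor of the secretory program, stood at 181, 188, 205, 272, 261 and 189.7 CPM, 2.04-fold (1.80 to 2.33) and 3.03-fold (2.82 to 3.25) over type 1 dendritic cells and B cells (1.76-fold over type 1 with that scaling). Sdf2l1, a stress-induced protein of the endoplasmic reticulum, was the gene lower than in both conventional forms, at 51.9 CPM against 185 and 118.

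**Figure D3:**
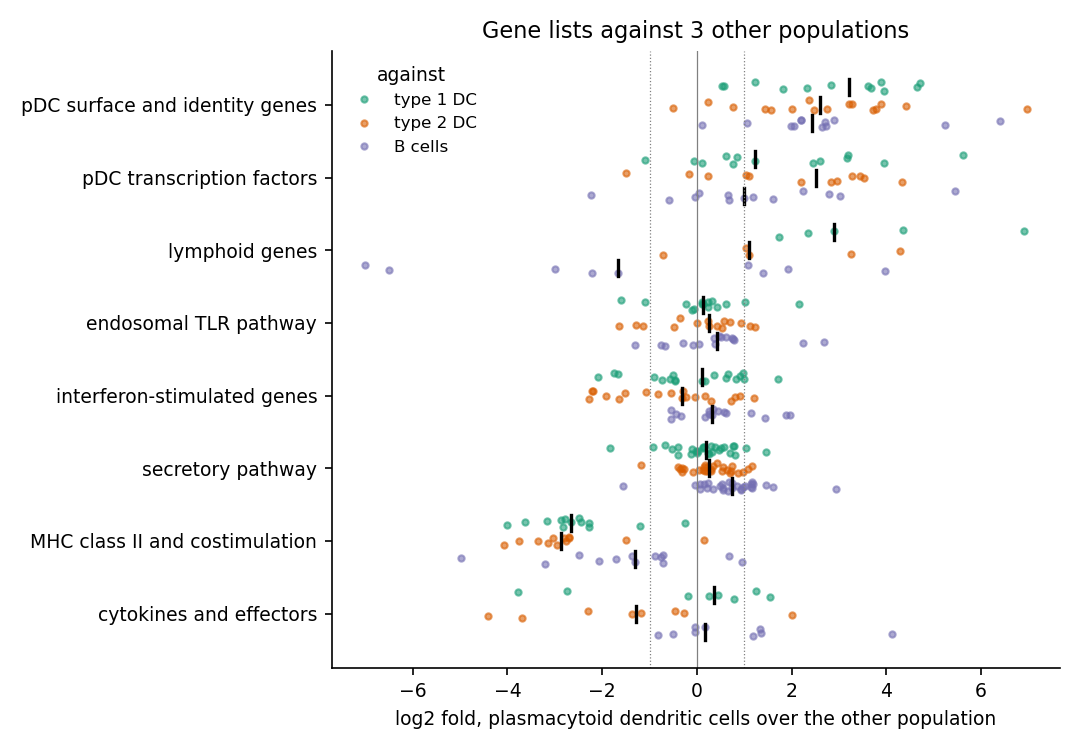
Log2 fold of plasmacytoid dendritic cells over type 1 dendritic cells, type 2 dendritic cells and B cells (x axis) for the genes of 8 lists (y axis) at 10 CPM or more in both populations compared; points are genes, black bars medians and dotted lines 2-fold. Most points of class II and costimulation genes lie below 0.

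Of 21 cytokine and effector genes, 15, 14 and 11 passed the filter, but 6, 5 and 2 of them were under 10 CPM in the plasmacytoid cells and are not counted, nor is the 1 under 10 CPM in each conventional form. Of the 8, 8 and 9 left, 2 were higher and 2 lower than in type 1, 1 higher and 5 lower than in type 2 dendritic cells, and 4 higher and none lower than in B cells, beside 12.7%, 12.8% and 7.88% of all genes higher and 6.33%, 8.05% and 5.63% lower. Il12a, the p35 chain of interleukin 12, stood at 191, 138, 93.3, 145, 112 and 80.6 CPM, with no UMI in type 1 dendritic cells (at least 106-fold higher), and was 165-fold (79.9 to 412) and 2.54-fold (2.32 to 2.78) over type 2 dendritic cells and B cells. Its partner Il12b, the p40 chain, had no UMI in the 620 cells and stood at 88.8 and 20.3 CPM in type 1 and type 2 dendritic cells. Thinned to 3000 UMIs, 23.9% of plasmacytoid dendritic cells had a UMI of Il12a, against 12.5% of B cells and none of 100 type 1 and 468 type 2 dendritic cells, which allows a share of up to 3% and 0.641% at that depth (3 cells of those thinned). Without thinning the shares were 51.1%, 23.0% in B cells, 0 and 1.28%. Ebi3, which pairs with p35 in interleukin 35, stood at 14.2 CPM against 16.3, 37.0 and 12.6. Ccl4, an inflammatory chemokine, stood at 1166, 1101, 1574, 2113, 2355 and 1314 CPM, highest in libraries 4 and 5, and was 2.90-fold (2.74 to 3.06), 4.00-fold (3.86 to 4.15) and 17.4-fold (16.5 to 18.3) over the 3 populations. Ccl3, from a neighboring gene, stood at 98.5 CPM and was at a ratio of 0.823-fold (0.754 to 0.899) to type 2 dendritic cells. Il1b stood at 246 CPM, 12.9-fold (12.4 to 13.5) below type 2 dendritic cells, and at 105 in the 587 cells without S100a8 and S100a9. Cxcl9 was at 0 in 5 libraries and at 90.2 CPM in library 4, where all its 71 UMIs lay in 1 cell, and Cxcl10 was at 6.07 CPM against 102 and 281 in the conventional cells.

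Of 21 trafficking genes 17 were counted in each comparison, with 3, 4 and 9 higher and 2, 4 and 2 lower, beside 12.7%, 12.8% and 7.88% of all genes higher and 6.33%, 8.05% and 5.63% lower. Selplg, the ligand of P-selectin, stood at 727, 764, 782, 1032, 873 and 843 CPM and was 6.50-fold (6.21 to 6.80) over B cells. Cmklr1, the receptor for chemerin, stood at 44.9 CPM and was 7.14-fold (4.41 to 12.4) over type 1 dendritic cells. Cxcr3, the receptor of CXCL9 and CXCL10, stood at 8.35, 10.2, 11.9, 33.0, 26.7 and 15.8 CPM and had ratios of 9.68-fold (5.85 to 17.1) to type 2 dendritic cells and 35.8-fold (18.4 to 79.8) to B cells, where its mean over the pair was under the filter, and of 0.751-fold (0.553 to 1.03) to type 1 dendritic cells. Ccr2, used by cells that follow CCL2 into inflamed tissue, was 3.83-fold (3.56 to 4.12) below type 2 dendritic cells.

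Genes through which PEPITEM is made and acts were taken from a list of 16. Of these, 10, 10 and 11 were counted, with 1 higher and none lower in each comparison, beside 12.7%, 12.8% and 7.88% of all genes higher and 6.33%, 8.05% and 5.63% lower. With median-of-ratios scaling 1 of 9 was also lower than in type 2 dendritic cells, beside 819 of 7039 among all genes. Adipor2, a receptor for adiponectin, stood at 245, 250.5, 317, 337, 281 and 332 CPM and was 3.20-fold (2.81 to 3.66), 3.48-fold (3.22 to 3.77) and 3.98-fold (3.73 to 4.25) over type 1 dendritic cells, type 2 dendritic cells and B cells. Adipor1 was at 72.4, 56.4, 78.0, 27.9, 49.4 and 51.5 CPM with no call. Ywhaz, which encodes the 14-3-3ζ protein that contains PEPITEM, stood at 377, 346, 412, 366, 289 and 348 CPM against 493, 422 and 402. The sphingosine 1-phosphate receptor gene S1pr4 stood at 19.5, 45.8, 20.4, 39.4, 45.4 and 39.8 CPM, 16.3-fold (10.8 to 25.7) over type 2 dendritic cells and 1.09-fold (0.957 to 1.24) against B cells. S1pr1, the receptor by which lymphocytes leave tissue, was at 0.993 CPM (9 UMIs) against 141 in B cells. Cdh15, whose protein has been proposed as a binding partner of PEPITEM on endothelium, had no UMI.

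Shares of cells with a UMI, which at this depth follow the level of a gene also where cells do not differ, were compared after each of 619 cells was thinned to 3000 UMIs (1 shallower cell was left out, and 1, 1 and 27 of the comparison populations). Dntt was found in 39.7% of cells (66.3% unthinned), and in 17.9%, 47.4%, 29.7%, 32.7%, 39.4% and 42.2% of those of libraries 1 to 6. Type 1 dendritic cells had 1.00%, type 2 dendritic cells 0 of 468 (up to 0.641%) and B cells 0.928%, or 0.990%, 0.426% and 1.38% without thinning. Sox4, a factor of progenitors and early lymphoid cells, was found in 25.7%, from 12.7% in library 4 to 32.7% in library 6, against 25.8% of B cells. Cd4 was found in 14.2% of the cells, between 10.3% and 18.9% in every library, and in 0.214% of type 2 dendritic cells and 0.127% of B cells. Cd8a was found in 8.56%, and in 7.69%, 7.89%, 24.3%, 18.2%, 8.76% and 3.52% of libraries 1 to 6, so that libraries 3 and 4 were the highest and library 6 the lowest, against 3% of type 1 dendritic cells and 0 of 2371 B cells (up to 0.127%). Without thinning Cd8a was found in 20.6% of the cells, 13.9% of type 1 dendritic cells and 0.167% of B cells. The libraries were tied to no sample, so the spread between samples of a group is unknown. The T cell genes Cd3d, Cd3e and Cd3g stood at 3.31, 2.32 and 2.54 CPM, highest in library 6 at 6.52, 6.86 and 6.52.

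**Figure D4:**
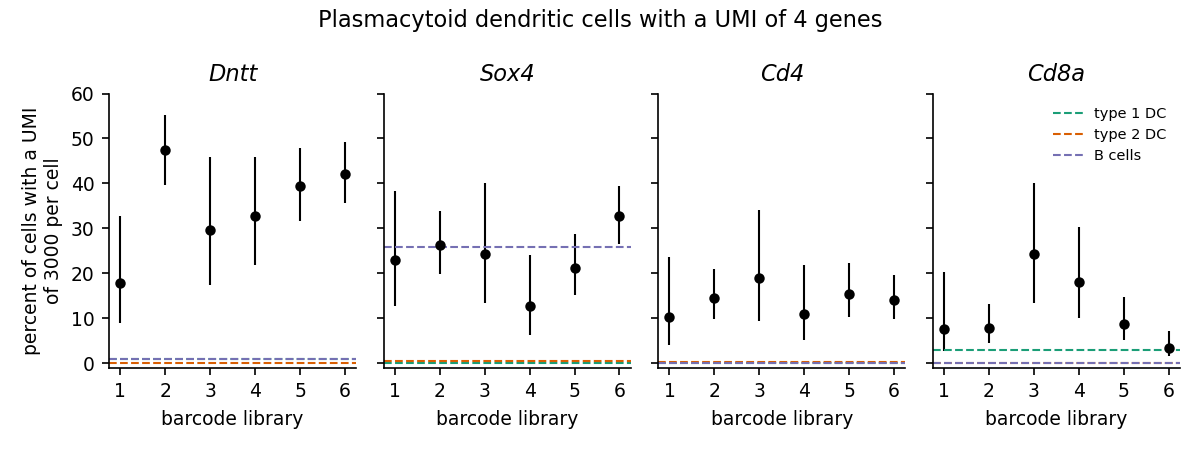
Percent of plasmacytoid dendritic cells with a UMI of Dntt, Sox4, Cd4 or Cd8a after thinning to 3000 UMIs per cell (y axis) in each barcode library (x axis); points are shares, bars Wilson 95% intervals, and dashed lines the shares in type 1 dendritic cells, type 2 dendritic cells and B cells. Cd8a reached 24.3% in library 3 and 3.52% in library 6.

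Transcripts of dividing cells were found in a small share of the cells. A UMI of both Mki67 and Top2a was found in 26 of 619 thinned cells (4.2%, interval 2.88% to 6.08%), against 10.0% of type 1 dendritic cells, 4.49% of type 2 dendritic cells and 3.12% of B cells. Of 20 cell cycle genes, 17, 16 and 17 were counted, with 1 lower than in type 1 dendritic cells, 1 higher than in type 2 dendritic cells and none called against B cells, beside 12.7%, 12.8% and 7.88% of all genes higher and 6.33%, 8.05% and 5.63% lower. With median-of-ratios scaling none was higher than in type 2 dendritic cells, beside 550 of 7039 among all genes. With that scaling 3 of 17 were lower than in type 1 dendritic cells, beside 598 of 7091. Without cells that held S100a8 or S100a9, 5 of 17 were lower than in type 1 dendritic cells, beside 464 of 6957. Of 12 progenitor genes 9 passed the filter against each population, 7, 7 and 2 of them at under 10 CPM in the other population, so that their count is not read. Meis1, a factor of stem cells, stood at 48.7, 69.7, 17.0, 83.8, 40.1 and 76.2 CPM. The list also holds the granule protease Elane, at 0, 299, 0, 0, 1.34 and 53.9 CPM, and Mpo, at 0, 146, 0, 2.54, 0 and 82.3, which were carried by libraries 2 and 6; without cells that held S100a8 or S100a9, Elane was at 19.4 and Mpo at 35.7 CPM.

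The 16 stress and immediate-early genes summed to 7329, 5029.6, 6205, 6580.4, 7823 and 6843 CPM in libraries 1 to 6, lowest in library 2 and highest in library 5. Of these genes 2 were higher and 2 lower than in type 1, 1 higher and 6 lower than in type 2 dendritic cells, and none higher and 1 lower than in B cells, beside 12.7%, 12.8% and 7.88% of all genes higher and 6.33%, 8.05% and 5.63% lower. With median-of-ratios scaling 1, 0 and 0 were higher and 3, 6 and 1 lower. Among all 7091, 7039 and 7586 genes with that scaling, 660, 550 and 606 were higher and 598, 819 and 424 lower. The inducible heat shock gene Hspa1a stood at 376, 193, 127, 274, 650.1 and 589 CPM in libraries 1 to 6, and Hsph1, chosen after its values were seen, at 86.3, 86.9, 52.6, 110.5, 424 and 289.6, both highest in library 5 and next in library 6. Jun stood at 645, 511, 478, 289.5, 1108 and 660.1 CPM with the same library highest. Over cells thinned to 3000 UMIs the list had a median of 13 UMIs, with 5 at the 10th percentile and 41 at the 90th.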

How the data were processed

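CD45+ synovial cells were captured with the 10x Chromium 3′ v3.1 kit. The authors aligned reads to mm10 with Cell Ranger (version 7 per the labels), corrected for free RNA with SoupX, removed doublets with DoubletFinder and filtered cells on genes and mitochondrial reads. The deposited file is 1 matrix of UMI counts, whole numbers of molecules per gene and cell, for 20394 genes and 32953 cells, and no normalization had been applied to it. Barcodes end in a number from 1 to 6, here called the library; the numbers were tied to none of the 6 samples.

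Counts were summed over the cells of a population and divided by their total (CPM). A fold is the ratio of CPM with an exact conditional binomial 95% interval, and a count of 0 was set to 3 UMIs to give a bound. Bounds and intervals take each 0 as deposited. A 0 left by the correction for free RNA would give no such limit. A call is a fold of 2 or more at a mean CPM of at least 10, with genes of either selection rule left out; members of a list were counted where both populations had at least 10 CPM, a limit chosen after seeing the data. Named genes are the 10 highest and 6 lowest folds among genes at 100 CPM or more in the higher population with 1 direction in every library holding 10 or more cells of both; a gene that the rule named is not reported here. Shares have Wilson 95% intervals, the limit for a share of 0 is 3 cells of those read, and cells were thinned to 3000 UMIs without replacement. Cells were clustered with scanpy 1.11.5 (Leiden, resolution 1, 30 components, 15 neighbors). Python 3.11.15, numpy 2.4.6 and scipy 1.17.1 were used, and the fold code was tested on simulated independent counts. In thinned cells the variance of the class II and costimulation list was 20.9 times its mean. The simulation did not cover such spread between cells, and the intervals of folds do not allow for it. The members, lists and tests were chosen with earlier results of these data known. Doublets were not called again. Promoters were read from a RefSeq table (GRCm38.p6), and gene symbols are those of the matrix. Alternatives covered the thresholds of the rule, the filter, the scaling, thinning and each library left out.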

Additional observations from a re-analysis of the deposited data

Results flagged for a closer look

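Signal in cells outside the comparisons was found at the limits of the selection rule. With at least 3 UMIs of Siglech and a UMI of Tcf4, 55 cells also held Lyve1 and were left out, 20, 3, 6, 13, 8 and 5 of them from libraries 1 to 6. These 55 cells had 768 CPM of Lyve1 and 2125 of C1qa, but 21.8 of Cox6a2 and 163 of Bst2, against 974 and 2203 CPM in the 620 members. A further 14 cells had 5 or more UMIs of Cd79a and Cd79b, 7 of them in library 2 and 5 in library 6. These 14 cells had 742 CPM of Cox6a2, 439 of Ccr9 and 1890 of Bst2, together with 525 of Cd79a and 1458 of Igkc. Whether either set holds mixed cells was not tested.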

How the results depend on the processing

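The share of plasmacytoid dendritic cells, 1.88%, became 1.74% with Siglech at 5 or more, 2.09% without the limits on Lyve1, Cd79a and Cd79b, 1.42% as the median over libraries and 1.597% in thinned cells with Siglech at 2 or more. With 1 library left out it ranged from 1.66% (without library 6) to 2.05% (without library 5). With Ccr9 and Cox6a2 in place of the rule it was 1.62%, and within the main cluster alone 1.64%; both were chosen after seeing the data. Without a filter on low counts, 3085 genes were higher and 1729 lower than in type 1 dendritic cells, 3898 and 1838 than in type 2 dendritic cells, and 2362 and 2256 than in B cells. At a mean of 50 CPM the numbers were 559 and 323, 539 and 410, and 415 and 297. Asking that the counting limit of the fold pass 2 left 922 genes higher than in type 1 dendritic cells, and median-of-ratios scaling left 931 higher than in type 2 dendritic cells. With 1 library left out, calls ranged from 1457 to 1549 higher and 613 to 684 lower against type 1, 1427 to 1545 and 785 to 818 against type 2 dendritic cells, and 884 to 942 and 669 to 746 against B cells. Without cells that held S100a8 or S100a9, 1636, 1622 and 1041 genes were higher and 713, 844 and 782 lower. Of 816 values of named genes under these alternatives, 86 left their counting interval; 0 changed direction, which the choice of these genes by size and by direction in every library had fixed and which is no sign of stability.

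Among the lists whose counts are read, some medians near that of all genes changed sign over members at 10 CPM or more in both populations. With median-of-ratios scaling the endosomal sensing list had a median log2 fold of -0.09, the interferon-stimulated list -0.08 and the secretory list -0.03 against type 1 dendritic cells (0.13, 0.10 and 0.19 by CPM), where that of all genes went from 0.17 to -0.04. Against type 2 dendritic cells the secretory list went from 0.25 to -0.07 and all genes from 0.20 to -0.10. Without cells that held S100a8 or S100a9, the DAP12 list went from -0.02 to 0.58 against B cells. In those changes of sign the cause was not tested. At resolution 0.5 and 2 the main cluster held 552 and 535 members. No paired analysis was possible because the replicate numbers of PBS and PEPITEM are tied to no barcode library; between cell populations, directions were counted within each library. Depth limits genes under 0.331 CPM in these cells, and only 101 type 1 dendritic cells were found.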
